A study of Caenorhabditis elegans with 4 samples.

Results

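The ZFP-1 binding sites described here lay in the centre of chromosome V of Caenorhabditis elegans. They were the peaks of the series list whose midpoint fell from 5900000 to below 16550000 on chromosome V (WormBase build WS220), a window of 10.65 Mb chosen by position and not by any measured value. It held 1417 of the 13878 peaks in the series list, or 10.2%. The same window held 358 peaks of ChIP replicate 1 and 619 of ChIP replicate 2. The series profiled whole wild-type N2 larvae at the L3 stage, kept at 20 degrees Celsius, with males and hermaphrodites mixed. Of its 4 libraries, 2 were ZFP-1 immunoprecipitates and 2 were input DNA, and both groups shared strain, genotype and stage. Extract (2 mg, with 1% sarkosyl) was precipitated with purified rabbit antibodies to residues 573 to 867 of ZFP-1. Whether replicates were separate cultures is not in the labels, and their spread may be only technical. Values from whole larvae are also averages over all tissues, so a site bound in few cells and a site bound weakly in many cannot be told apart.

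ZFP-1 is a chromatin protein with PHD zinc fingers, the worm relative of mammalian AF10 (MLLT10). It works with DOT-1.1, the enzyme that methylates lysine 79 of histone H3, and is known for its presence at promoters of widely expressed genes and for its part in RNA interference. Chromosome V is the longest chromosome of the worm, whose chromosomes are holocentric, so the centre is not a centromere. Autosomal centres recombine little and are dense in conserved, widely expressed genes. The arms recombine more, and those of V carry large families of chemoreceptor genes. No gene could be assigned to a peak here, because the gene table at hand is on another build, and no sequence is shown, because no genome of WS220 was used here.

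ZFP-1 peaks were denser in the centre of V than on either arm, and sparser than in the middle of the other autosomes. In the series list the centre held 133 peaks per Mb, the left arm 72.7 and the right arm 45.1. The density ratio to the left arm was 1.83 (95% interval 1.42 to 2.36; quasi-Poisson regression over 250 kb bins, n = 43 and 24, adjusted p = 3.11e-05). The ratio to the right arm was 2.95 (2.05 to 4.25; quasi-Poisson regression, n = 43 and 17 bins, adjusted p = 1.42e-06). The middle 50% of chromosomes I to IV held 172 peaks per Mb, so the centre of V stood at 0.77 of that level (0.68 to 0.87; quasi-Poisson regression, n = 43 and 124 bins, adjusted p = 0.000121). Each p was adjusted over 12 density contrasts, which were 4 contrasts in each of 3 lists.

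Each replicate list gave the same 3 directions. In replicate 1 the centre held 33.6 peaks per Mb, against 19.3 on the left arm, 11.4 on the right arm and 44.2 in the middle of I to IV. Its ratio to the left arm was 1.74 (1.31 to 2.32) and that to the right arm 2.94 (1.89 to 4.57), and both passed (quasi-Poisson regression, same bins as above, n = 17 or more, adjusted p = 0.000457 and 3.11e-05). In replicate 2 the same parts held 58.1, 39.2, 20.1 and 74.2 peaks per Mb, and the ratios to the arms were 1.48 (1.20 to 1.83) and 2.89 (2.01 to 4.15). Both passed (quasi-Poisson regression, n = 17 or more bins, adjusted p = 0.000583 and 1.42e-06). Set against the middle of I to IV, replicate 1 stood at 0.76 and replicate 2 at 0.78 (quasi-Poisson regression, n = 43 and 124 bins, adjusted p = 0.000625 and 0.000121). Neighbouring bins resemble each other, so these p-values are too small by an unknown amount. In all, the centre took 69.4% of the series-list peaks of V (exact Clopper-Pearson 95% interval 67.3 to 71.4%), 68.6% in replicate 1 and 66.0% in replicate 2, on 50.9% of its length. That interval treats peaks as independent, and peaks lie close together, so it is too narrow.

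Density was far from even inside the window. Counted in 500 kb bins from the left edge, the series list had 86 and 88 peaks in the first 2 bins, which reach from 5.9 to 6.9 Mb. It fell to 38, 39 and 51 in the next 3 bins, from 6.9 to 8.4 Mb, and then rose to 101 between 8.4 and 8.9 Mb, the highest bin of all. From 8.4 to 13.4 Mb the counts stayed between 66 and 101, with 836 peaks at 167 per Mb. They were 60, 53 and 73 in the 3 bins from 13.4 to 14.9 Mb. The last 3 full bins, from 14.9 to 16.4 Mb, held 33, 32 and 24, and the final 150 kb held 4. Over the 21 full bins the mean was 67.3 ± 23.8 peaks (SD), and the highest bin held 4.21 times as many peaks as the lowest. This ratio was 8.67 in replicate 1, whose lowest bin had 3 peaks, and 3.77 in replicate 2.

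The profile therefore had a trough near its left end, a long dense stretch and a low stretch at its right end. The trough from 6.9 to 8.4 Mb held 85.3 peaks per Mb, between 174 per Mb to its left and 167 to its right. It was uneven inside. In 150 kb bins it held 3, 7 and 3 peaks from 7.25 to 7.7 Mb. From 7.7 to 8.3 Mb such bins held 21, 17, 17 and 20, close to the median of 21 for the window. The low stretch from 14.9 Mb to the right edge held 56.4 peaks per Mb, with 93 peaks, closer to the right arm's 45.1 than to the 147 of the other 9000 kb of the window. These stretches were marked out after the profile was seen, so no test was made between them. Their edges are edges of the 500 kb bins and place each change in density only roughly.

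**Figure D1:**
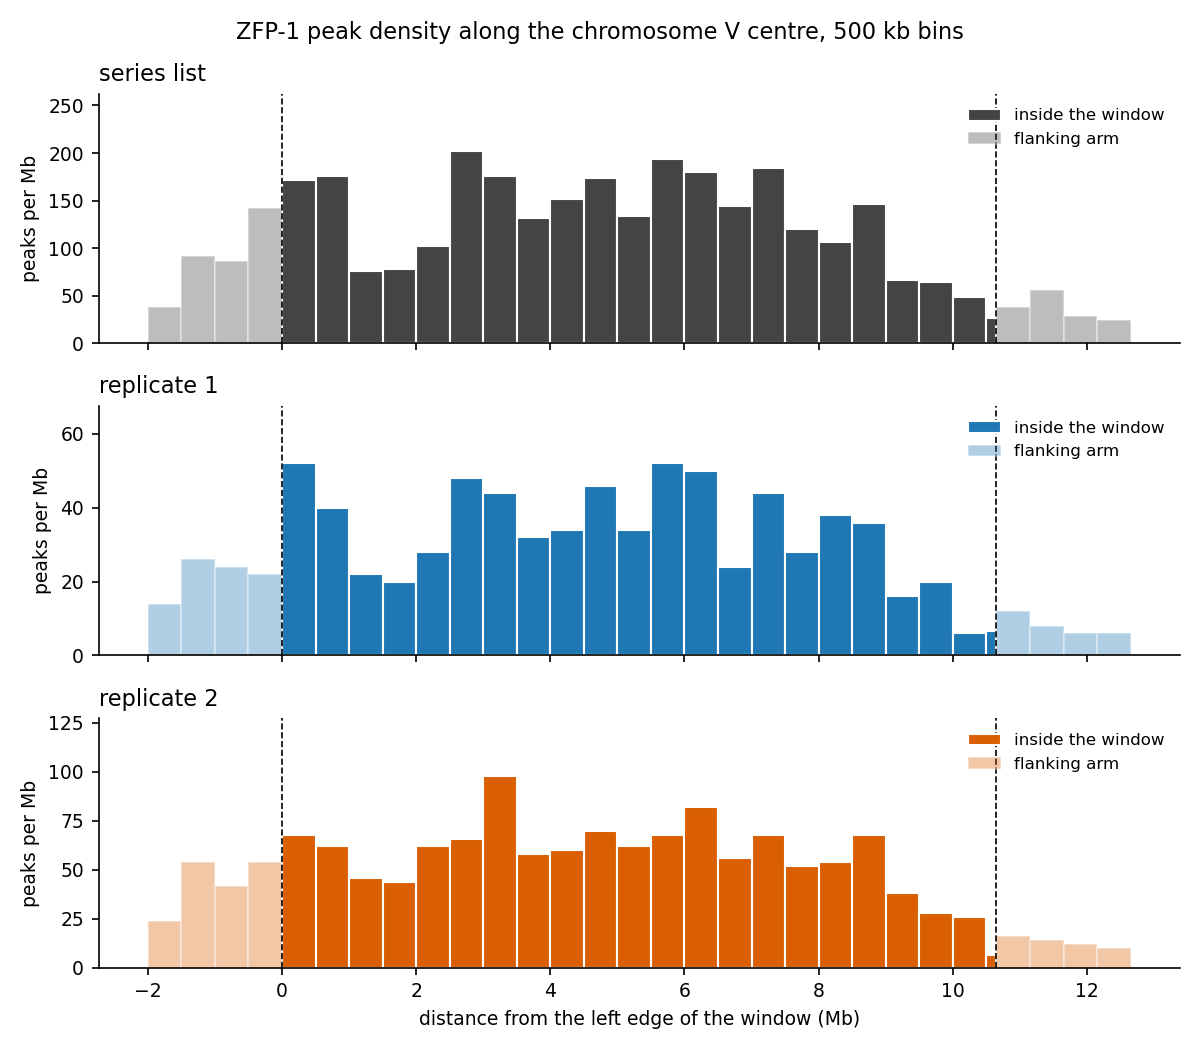
Peaks per Mb in 500 kb bins along the centre of chromosome V (dark bars) and in 4 bins of arm on either side (pale bars), with 1 panel per list; the x axis is distance from the left edge of the window in Mb, dashed lines mark the window edges, and the last dark bar covers 150 kb. All 3 lists show a trough near the left edge and low bars at the right end, where the series list falls from 146 to 66 peaks per Mb.

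Both replicates showed the trough and the low right end. In replicate 1 the bins held 26 and 20 peaks before the trough, 11, 10 and 14 in it, and 24 after it. In replicate 2 they held 34 and 31 before it, 23, 22 and 31 in it, and 33 after it, so the trough was shallower there and the last of its 3 bins matched the bins outside. Some bins elsewhere fell within the range of the trough bins. From 12.4 to 12.9 Mb, replicate 1 held 12 peaks and replicate 2 held 28. From 13.4 to 13.9 Mb they held 14 and 26. In replicate 2 the bins starting at 6.4, 9.4, 9.9, 10.9 and 13.9 Mb also held 31, 29, 30, 31 and 27. Up to 14.9 Mb, only its trough bins with 23 and 22 peaks lay below all bins outside the trough. Between the bins that meet at 14.9 Mb, replicate 1 dropped from 18 peaks to 8, and replicate 2 from 34 to 19. The lowest full bin was that from 15.9 to 16.4 Mb in each list, with 3 peaks in replicate 1 and 13 in replicate 2. The highest bin differed between lists. It lay from 8.4 to 8.9 Mb in the series list and from 8.9 to 9.4 Mb in replicate 2, with 49 peaks, while replicate 1 had 26 in each of 2 bins, from 5.9 to 6.4 and from 11.4 to 11.9 Mb. Across the 21 full bins, replicate counts correlated with Pearson r = 0.83 and Spearman rho = 0.88. In 71 bins of 150 kb these were 0.80 and 0.76. Bins share libraries and sequence, so the values are given with no p.

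The window edges fell differently on the 2 sides. On the left, the 4 arm bins leading up to the edge held 19, 46, 43 and 71 series-list peaks, and the first bin inside held 86. In replicate 1 the same 4 arm bins held 7, 13, 12 and 11 peaks and the first bin inside 26. In replicate 2 they held 12, 27, 21 and 27, and the first bin inside 34. The series list thus climbed over several bins, while replicate 1 was flat over the last 3 arm bins and stepped up at the edge. On the right, the last full bin inside held 24 series-list peaks and the 4 arm bins beyond held 19, 28, 14 and 12. There the fall from 73 to 33 peaks was between the 500 kb bins that meet at 14.9 Mb, 1650 kb inside the edge. In 150 kb bins from 14.75 to 15.35 Mb the series list held 21, 13, 14 and 4 peaks, so its fall came in steps. Replicate 1 held 10, 2, 4 and 1 in these bins, and replicate 2 held 12, 7, 9 and 1. The members nearest to the edges were from 5932372 to 5932630 and from 16537899 to 16538189. The nearest peaks outside were from 5875869 to 5876080 and from 16592192 to 16592388. All 4 scored from 4.75 to 17.5 and met no replicate peak.

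Dividing the window into left, middle and right parts of 3550 kb gave 504, 557 and 356 series-list peaks. In replicate 1 they held 130, 136 and 92, and in replicate 2 they held 226, 231 and 162. The right part was the lowest in each list. The left and right 50% of the window held 144 and 122 peaks per Mb, a ratio of 1.19 (0.91 to 1.55), and did not pass the test (quasi-Poisson regression, n = 21 and 21 bins, adjusted p = 0.226). Replicate 1 gave 1.20 (0.88 to 1.63) and replicate 2 gave 1.23 (0.94 to 1.59), and neither passed (quasi-Poisson regression, n = 21 and 21 bins, adjusted p = 0.246 and 0.147).

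A 500 kb window moved in 50 kb steps located the extremes more closely, and windows that overlapped one already ranked were passed over. The densest place ran from 6200000 to 6699999 with 112 series-list peaks covering 11.0% of its bases. It was followed by 11750000 to 12249999 with 109 peaks and 8600000 to 9099999 with 105. Replicate 1 had 27, 32 and 25 peaks in these places, and replicate 2 had 47, 49 and 38. The sparsest place ran from 7250000 to 7749999, with 17 series-list peaks on 1.62% of its bases, 6 peaks in replicate 1 and 9 in replicate 2. Next came 15700000 to 16199999 with 21 and 15100000 to 15599999 with 23 series-list peaks. The highest and the lowest places thus both lay near the left end of the window.

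On a finer scale, density changed from one 150 kb bin to the next. The 71 bins held from 3 to 44 series-list peaks, with a median of 21. The highest ran from 6200000 to 6349999, where peaks covered 18.1% of the bases. Replicate 1 covered 21.2% of it and replicate 2 covered 29.0%. The dense stretch from 8.4 to 13.4 Mb also had sparse bins. That from 12650000 to 12799999 held 7 series-list peaks, 0 of replicate 1 and 2 of replicate 2. That from 9800000 to 9949999 held 8, 2 and 4. Support could change sharply between neighbours. The bin from 10850000 to 10999999 held 40 peaks, of which 28 met both replicates, and the one after it held 25, of which 3 did. Of 213 bins of 50 kb, 11 held no series-list peak, 65 held none of replicate 1 and 35 none of replicate 2. The 11 were empty in both replicates too, and since nearly all replicate peaks met a series-list peak this adds little. The densest 50 kb of each list was the same, from 10850000 to 10899999, with 26 series-list peaks, 10 peaks in replicate 1 and 13 in replicate 2. The 22 fullest of the 213 bins held 27.0% of the series-list peaks.

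**Figure D2:**
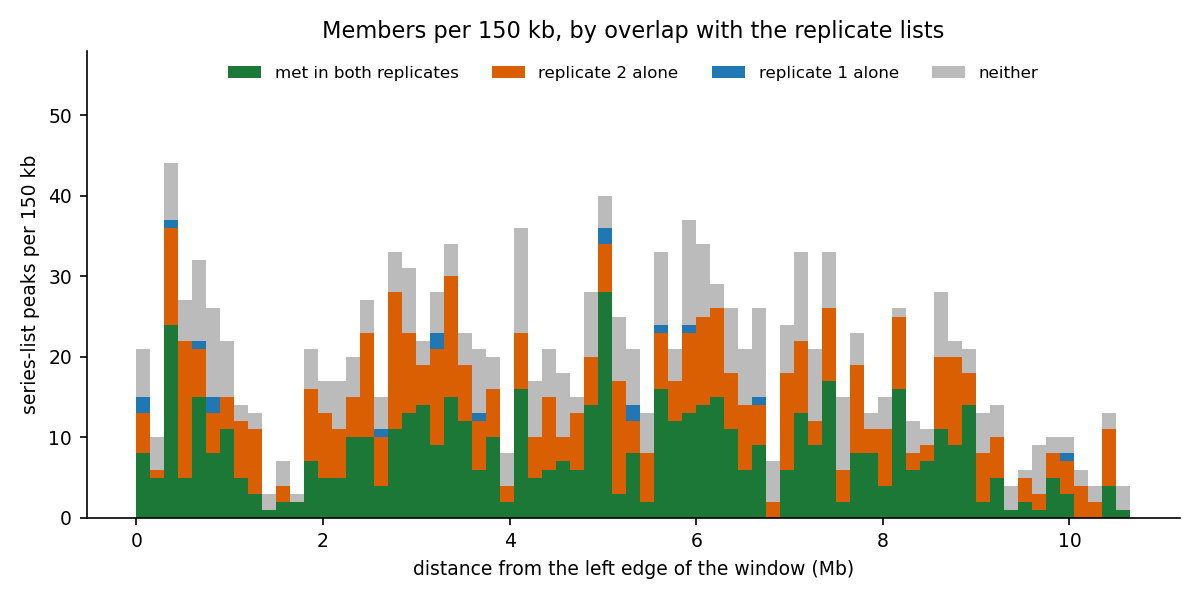
Series-list peaks per 150 kb along the centre of chromosome V, stacked by whether each peak met a peak of both replicates, of replicate 2 alone, of replicate 1 alone or of neither; the x axis is distance from the left edge of the window in Mb. The tallest bar, near the left edge, holds 44 peaks and the lowest hold 3.

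Gaps between neighbouring members ranged from 44 to 128779 bp, with a median of 2062 bp (interquartile range 486 to 8074 bp) and a mean of 7049 bp. The SD of the gaps was 1.78 times their mean. On the left and right arms it was 1.72 and 1.60 times the mean. In the replicate 1 and 2 lists of the window it was 1.46 and 1.44 times. If peaks were scattered evenly at random the SD would be close to the mean, and no test was made of this. Of the 1416 gaps, 160 were under 200 bp, 396 from 200 bp to under 1 kb, 376 from 1 to 5 kb, 348 from 5 to 20 kb, 113 from 20 to 50 kb and 23 longer. These 23 made up 16.8% of all bases between members. On the arms gaps were longer, with a median of 4088 bp on the left and 6379 bp on the right, and gaps of 50 kb or more made up 44.0% and 63.3% of the bases between peaks. The median gap was shorter in the middle 50% of chromosomes I to IV, 1353 bp, and over the whole list, 1710.5 bp. In the replicate lists the centre had a median gap of 12468 bp in replicate 1 and 7114 bp in replicate 2.

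Most of the closest pairs of members lay under a single replicate peak. Of the 160 pairs of members under 200 bp apart, 157 lay under 1 peak of replicate 2 and 114 under 1 peak of replicate 1. Of the 396 pairs from 200 bp to under 1 kb apart, 245 and 112 did. Of the 376 pairs from 1 to 5 kb apart, 5 and 2 did. Counts of members in such runs therefore depend on how finely the series list was divided.

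**Figure D3:**
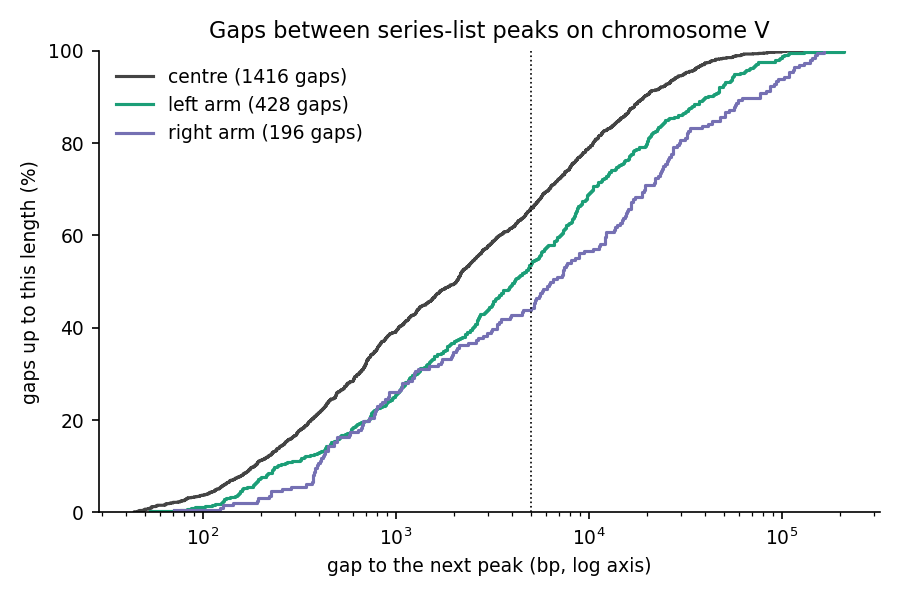
Cumulative share of gaps between neighbouring series-list peaks up to each length, for the centre, left arm and right arm of chromosome V; the x axis is gap length in bp on a log scale and the dotted line marks 5 kb, the limit used for clusters. The curve of the centre lies to the left of both arms, with medians of 2062, 4088 and 6379 bp.

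The 5 longest gaps between members lay in the trough and in the low right stretch. The longest, 128779 bp from 16370290 to 16499068, and the second, 104568 bp from 16127632 to 16232199, were at the right end. The others were 100504 bp from 7580813 to 7681316, 99182 bp from 7481204 to 7580385 and 90933 bp from 7250444 to 7341376. Neither replicate had a peak inside any of these 5 gaps apart from peaks that also reached a member at the gap's edge. The gaps of 99182 and 100504 bp were parted by a lone peak, from 7580386 to 7580812 (427 bp, score 57.7). It met a peak in both replicates, with scores of 93.5 in replicate 1 and 282 in replicate 2. Both were under the median scores of the window, 187 in replicate 1 and 349 in replicate 2. The longest gap in the replicate 1 list within the window was 446349 bp, from 15891752 to 16338100, where the series list placed 14 peaks. In replicate 2 it was 147592 bp, from 16121580 to 16269171, with 2 series-list peaks in it.

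Runs of members less than 5 kb apart formed 485 clusters, a term that here includes lone peaks. Of these, 225 were lone peaks, 168 held 2 to 4 members and 92 held 5 or more. The 92 larger clusters held 739 members, or 52.2% (49.5 to 54.8%), on 1055 kb or 9.90% of the window. Their median span was 9468 bp, and the median gap inside them was 611 bp. There were 21 clusters of 10 or more, with 286 members. On the arms, clusters of 5 or more held 33.1% of peaks on the left and 31.0% on the right; denser parts join more peaks at a fixed gap limit, and no test was made of this difference. The replicate lists held few runs of 5 or more: 1 in replicate 1, with 5 peaks, and 18 in replicate 2, with 108.

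Larger clusters followed the density profile, as they largely must, being runs of the same peaks at a fixed gap limit. There were 9 of them from 8.4 to 8.9 Mb and 8 from 11.4 to 11.9 Mb, against a median of 4 per full bin. In the trough there were 2 in the first bin, 0 from 7.4 to 7.9 Mb and 3 in the last, and 752 kb from 7225369 to 7977577 had none. Bins from 14.9 to 16.4 Mb held 2, 1 and 1. Lone members with no other series-list peak within 20 kb on either side were few in the centre, 25 of 1417 or 1.76%, against 27 of 429 (6.29%) on the left arm and 22 of 197 (11.2%) on the right arm. A sparser part leaves more peaks alone at a fixed distance, so these shares largely restate the densities.

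The share of members that met both replicates rose with cluster size. Over the whole window 567 of 1417 members, or 40.0% (exact Clopper-Pearson 95% interval 37.5 to 42.6%), met a peak in both replicates, beside 38.4% of all series-list peaks, so the share was close to that of the whole list. It depended on the criterion, and was 3.88% when 50% of both peaks had to overlap and 61.8% among the better-scoring 50% of the list. A further 458 (32.3%) met replicate 2 alone, 18 (1.27%) met replicate 1 alone and 374 (26.4%) met neither. Over the whole list these shares were similar, 35.4%, 0.944% and 25.3%. Among lone peaks 19.6% met both and 45.8% met neither. In clusters of 2 to 4 these shares were 33.6% and 31.8%, in clusters of 5 to 9 they were 48.8% and 21.9%, and in clusters of 10 or more they were 52.4% and 9.79%. Taken as whole clusters, 84 of the 92 with 5 or more members touched a peak in both replicates and 1 touched none. Of the 225 lone peaks, 44 touched both and 103 touched none. A long cluster has more bases to be met, and members under 1 wide replicate peak are met together, so this rise is a description.

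Against the V arms, a larger share of the centre's peaks met both replicates, 40.0% against 33.1%. The odds ratio was 1.35 (1.05 to 1.74; quasi-binomial regression over 43 bins of the centre and 41 of the arms, p = 0.0202, 1 test). The direction turned, to an odds ratio of 0.932, when 50% of both peaks had to overlap, a criterion that narrow peaks inside wide ones fail. The left arm had 35.2% and the right arm 28.4%. The middle 50% of chromosomes I to IV had 40.8% and the whole list 38.4%. The centre's share was thus close to both, and the arms lay lower. Among the stretches of the profile, the share was lowest in the right low stretch, with 24 of 93 peaks (25.8%), and was 35.2% in the trough.

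**Figure D4:**
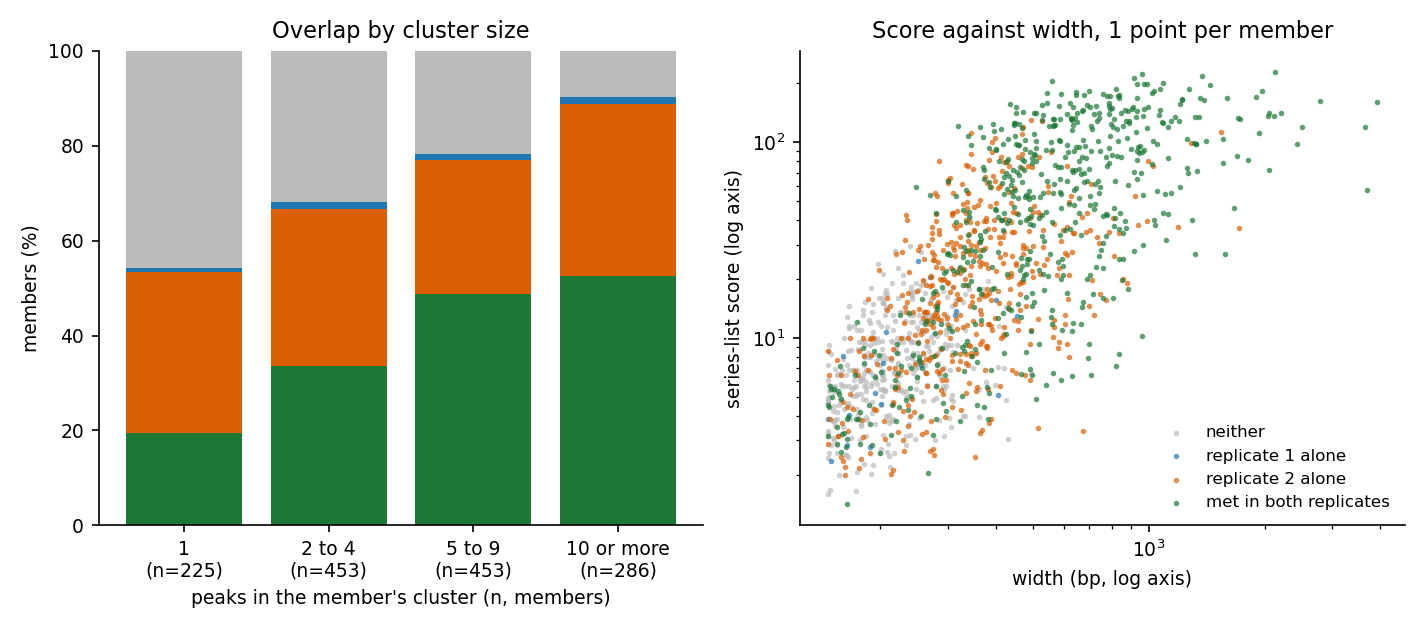
Left, members of clusters of 1, 2 to 4, 5 to 9 and 10 or more peaks, divided by which replicate lists they met, in percent of members; right, series-list score against width in bp for the 1417 members, both on log axes, with 1 point per member coloured in the same way. The share met in both replicates is 19.6% for lone peaks and 52.4% in clusters of 10 or more, and members met in neither have a median width of 208 bp and a median score of 6.94.

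The 5 clusters with the most members showed how the lists divided such regions. The first, from 8643280 to 8669034, held 20 members on 25755 bp with scores from 1.65 to 113.5. Replicate 2 covered 74.4% of it, mainly with a peak of 16644 bp from 8654172 to 8670815, which was its widest in the window and held 14 members. Replicate 1 covered 17.6% with 3 peaks, of which the highest scored 214, so 4 of the 20 members met both replicates. The second, from 6336141 to 6359841, held 19 members, and 6 met both; replicate 1 covered 24.5% of it and replicate 2 covered 75.2%. In both of these clusters replicate 2 covered at least 3 times as many bases as replicate 1.

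The other 3 differed less between replicates. The third, from 12076030 to 12115410, held 19 members spread over 39381 bp, the longest span of any cluster, with 6 replicate 1 and 12 replicate 2 peaks. It was made of separate narrow sites, and the series list covered 19.8% of it. The fourth, from 9074489 to 9096760, held 18 members, of which 8 met both. The fifth, from 6221038 to 6251886, held 17, and 11 met both. There the replicates gave almost the same wide peak, from 6220821 to 6231200 in replicate 1 (10380 bp, score 3100) and from 6220815 to 6231263 in replicate 2 (10449 bp, score 3100).

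**Figure D5:**
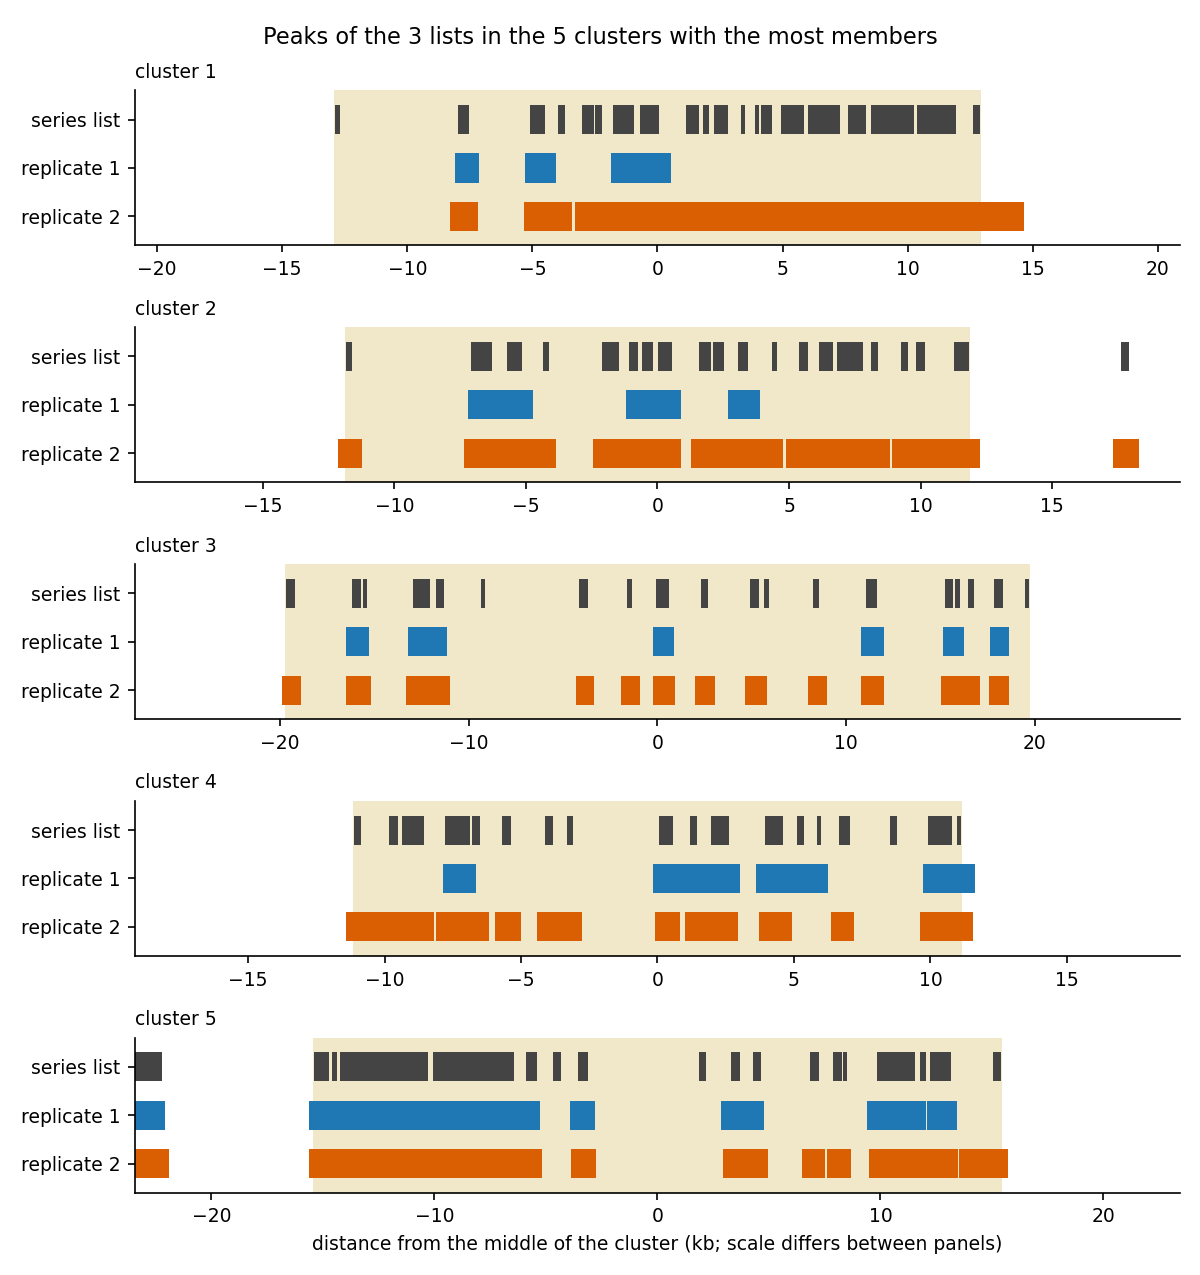
Peaks of each list in the 5 clusters with the most members, drawn to scale as boxes; the x axis is distance from the middle of each cluster in kb, and the shaded band is the cluster's span. In clusters 1 and 2 replicate 2 covers 74.4% and 75.2% of the band and replicate 1 covers 17.6% and 24.5%, while in cluster 5 these are 69.2% and 55.7%.

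Members had a median width of 335 bp (interquartile range 230 to 525 bp, range 146 to 3930 bp) and covered 5.86% of the window. The arms had median widths of 304 bp on the left and 307 bp on the right, and the whole list 331 bp. Widths were wider apart by replicate support than by place. Members met in both replicates had a median width of 539 bp, those met in replicate 2 alone 338 bp and those met in neither 208 bp. Over the whole list these widths were 533, 326 and 205 bp. Of the 74 members of 1 kb or more, 69 met both replicates and 0 met neither. Of the 426 under 250 bp, 56 met both and 276 met neither. A wide peak is also easier to meet by 1 bp. In the replicate lists the median width in the window was 1294 bp in replicate 1 and 1201 bp in replicate 2, and they covered 5.95% and 10.3% of it.

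The 5 widest members lay in 4 clusters. The widest, from 6222237 to 6226166 (3930 bp, score 160), and the third, from 6226394 to 6230038 (3645 bp, score 120), lay side by side under the shared wide peak of cluster 5. The second, from 10720293 to 10723991 (3699 bp, score 57.3), lay under the widest replicate 1 peak of the window, from 10713087 to 10724191 (11105 bp). Replicate 2 gave 14935 bp there, from 10713489 to 10728423. The fourth, from 12538190 to 12540980 (2791 bp), scored 163. The fifth, from 7727649 to 7730157 (2509 bp, score 120), lay in the trough as marked out, to the right of its sparsest part. Replicates 1 and 2 matched this member with peaks of 2970 and 3053 bp.

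The score, which the authors gave for each peak without a stated scale, had a median of 16.0 in the window (interquartile range 7.04 to 47.6, highest 227.85). It was 20.3 on each arm and 16.9 over the whole list. Of the members, 132 (9.32%) were among the highest-scoring 10% of the whole list, and 129 of these met both replicates. On the left arm 14.2% of peaks were among them and on the right arm 14.7%. The centre thus held more peaks per Mb than the arms and a lower share of high-scoring ones. This difference in share was not tested. Support rose with score. It was 19.4% in both the lowest 20% of members by score and the next 20%, then 25.4%, 48.4% and 87.3% (82.9 to 91.0%) in the following 20% steps.

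Within the window, sparse bins had higher median scores. Over the 21 full bins, the number of members and their median score correlated with Pearson r = -0.64 and Spearman rho = -0.75. Over 71 bins of 150 kb these were -0.27 and -0.15, so the relation was much weaker on the finer grid. The 53 members from 13.9 to 14.4 Mb had the highest median score of the full bins, 40.0, the largest median width, 443 bp, and the largest share met in both replicates, 58.5%. Median scores in replicate 1 and replicate 2 were also higher there than in the window as a whole, 384 against 187 and 820 against 349. The lowest series-list median was 11.2, from 12.4 to 12.9 Mb.

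The 10 highest-scoring members that met both replicates were spread from the trough to the start of the low right stretch. The first, from 6996925 to 6999059 (2135 bp), scored 227.85, 1616 in replicate 1 and 3100 in replicate 2, and stood near the left end of the trough. The second, from 13952548 to 13953509, scored 223 and had scores of 1154 and 3100 in replicates 1 and 2. The third, from 11921168 to 11922544, scored 219 and reached 3100 in both replicates. The fourth, from 11374986 to 11375902, scored 213 and was a lone peak, with scores of 528 and 3041.

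The remaining 6 scored from 196 to 207. In order of score, they were at 14193329 to 14193887, 13085765 to 13086852, 14895227 to 14896196, 14772817 to 14773805, 12082746 to 12083679 and 12464820 to 12466260. In replicate 1 the sites starting at 12464820 and 13085765 scored 2093 and 2026, and the others 653 to 1196. Replicate 2 gave 3100 to 6 of the 10, a value that 52 of its peaks in the window reached or passed. Of the 10, 2 were lone peaks, 3 were in clusters of 2 or 3 and 5 in clusters of 5 or more. The highest-scoring member that did not meet both replicates, from 13906140 to 13906634 with a score of 130, met replicate 2 alone.

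Nearly all replicate 1 peaks of the window had a counterpart in replicate 2, and about 1 in 2 of the replicate 2 peaks had one in replicate 1. Of the 358 replicate 1 peaks, 349 (97.5%, 95.3 to 98.8%) met a replicate 2 peak. The 9 that did not had a median score of 72.5, against 192 for the rest. Of the 619 replicate 2 peaks, 325 (52.5%, 48.5 to 56.5%) met a replicate 1 peak. The 294 that did not had a median score of 139, against 954. These shares were near those of the left and right arms, 98.2% and 92.0% for replicate 1 and 46.8% and 54.5% for replicate 2. All 358 replicate 1 peaks and 618 of 619 replicate 2 peaks met a series-list peak, and 134 and 194 of them held 2 or more. How the series list was made from the libraries is not given in the sources used here, so it was not treated as independent of the replicates.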

How the data were processed

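Peaks came from 3 GFF3 lists, 1 for the series and 1 per ChIP replicate, on WS220 per the file headers. The caller column reads MACS in the replicate files and MACS v2 in that of the series. The submitters' processing notes name BWA and ce10 without roles. Pooling and the use of input are not given in the sources used here, input peaks were not used, and depth is unknown. The score that the authors deposited for each peak has no stated scale and was compared within 1 list only. Peaks met when they shared at least 1 bp. Densities were compared by quasi-Poisson regression, and the share met in both replicates by quasi-binomial regression, over 250 kb bins with two-sided tests at 0.05 and Benjamini-Hochberg adjustment over the 12 density contrasts. Arms were the rest of V up to the last base covered by a peak, which also set the span of chromosomes I to IV. Clusters were runs with gaps under 5 kb. Intervals on shares are exact Clopper-Pearson 95% intervals, which cover counting error over peaks only. Python 3.11.15, numpy 2.4.6, pandas 2.3.3, scipy 1.17.1 and statsmodels 0.14.6 were used, and overlap counts equalled those of bedtools 2.31.1. The code was tested on simulated data. The members, bins and rules for named peaks (10 highest scores met in both replicates, 5 widest, 5 largest clusters, 5 longest gaps, 3 highest and 3 lowest windows) were chosen with earlier results of these data known. The stretches of the profile, the lone peak between gaps, the flanking bins, the 150 kb bins named and the highest score not met in both were chosen after their values were seen.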

Additional observations from a re-analysis of the deposited data

How the results depend on the processing

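Of 50 alternatives over 10 results, in 40 the call and direction held, or the value remained inside its interval. The higher density of the centre over both arms, and its lower density than the middle of I to IV, passed under each alternative run, including clusters in place of peaks (ratios 1.36, 1.81 and 0.91). Ending the window at 14.9 Mb, added after seeing the data, gave 2.02, 3.26 and 0.85. With 1 replicate's list in place of the series list, ratios ran from 1.48 to 1.74, from 2.89 to 2.94, from 0.76 to 0.78 and, for left over right 50%, from 1.20 to 1.23. The last ratio, 1.19, passed only the exact binomial test (1.19, adjusted p = 0.00171), which treats peaks as independent. With reciprocal overlap of 50%, the odds ratio of support turned from 1.35 to 0.932 (quasi-binomial p = 0.788) and the share of members met in both replicates fell to 3.88%. The better-scoring 50% of the list gave 61.8% for that share, 26.8% of members in clusters of 5 or more, a median gap of 5060 bp and a median width of 497 bp. Gap limits of 2 and 10 kb gave 32.7% and 74.2% in such clusters. The highest over the lowest 500 kb bin was 4.21 in the series list and from 3.77 to 8.67 in the replicates, where the lowest bin of replicate 1 had 3 peaks. The causes were not tested. No paired analysis was possible because only the ChIP group has peak lists here, and its 2 replicates have no second group to be paired with.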
